A study of Homo sapiens with 18 samples.

Results

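The tripartite motif (TRIM) family was taken as the 65 protein-coding genes with a symbol of TRIM and a number, out of 58735 genes in the tables of the RBCK1 and ANKRD35 knockdowns and 29928 in that of the MITD1 knockdown. Most TRIM proteins are E3 ubiquitin ligases: an N-terminal RING domain recruits a ubiquitin-conjugating enzyme, B-box and coiled-coil domains drive assembly, and the C-terminal domain, most often a PRY-SPRY domain, selects the target. Many members are induced by interferon and act in cell-intrinsic antiviral defence, while others work as transcriptional corepressors, at microtubules or at membranes. RBCK1 (HOIL-1) is itself an E3 ligase of another kind, a RING-between-RING subunit of the linear ubiquitin chain assembly complex.

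The series holds RNA-seq of 786-O, a cell line from a clear cell carcinoma of the kidney without functional VHL, in 18 libraries that form 6 groups of 3. Cells with RBCK1 knocked down (shRBCK1) were set against shcontrol cells, cells with ANKRD35 knocked down (siANKRD35) against sicontrol_for_siANKRD35 cells, and cells with MITD1 knocked down (siMITD1) against sicontrol_for_siMITD1 cells. The series title places the 3 genes on 1 axis with ANXA1 and with the response to sunitinib, and the labels name no drug treatment. The labels give no hairpin or siRNA sequence, no number of clones or cultures and no batch, and columns of the ANKRD35 knockdown are headed ShRNA where the sample titles say si. Whether replicates are separate cultures is not labelled, so p-values rest on a spread between libraries that may be technical.

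Values are FPKM, fragments scaled to gene length and to library size, as the authors deposited them in 1 table per knockdown with its control. Reads recovered per library ranged between 16346478 and 18648246 in the RBCK1 table, between 17502646 and 19034974 in the ANKRD35 table and between 13952923 and 15278906 in the MITD1 table. A member was tested in a table where 3 or more of the 6 libraries reached 1 FPKM, with limma on log2(FPKM + 1), two-sided, with p-values adjusted by Benjamini-Hochberg over all genes tested, and called at an adjusted p under 0.05. On that scale a change understates the fold of genes at low levels, and in bulk samples fewer cells of a type and less RNA per cell cannot be told apart. By this filter 36 members were tested for RBCK1, 37 for ANKRD35 and 30 for MITD1, with 40 tested in at least 1 table and 28 in all 3. The other 25 members reached at most 0.477 FPKM (TRIM17), and 11 of them were at 0 in all 18 libraries.

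Each target was lower in its knockdown libraries than in their own controls. For RBCK1 and ANKRD35 those controls lay far above the libraries of the other tables, and the reason was not tested. RBCK1 had 30.8, 32 and 32.9 FPKM in shRBCK1 libraries, against 487, 492 and 462 FPKM in shcontrol libraries, while the libraries of the other 4 groups held 54.7 to 96.6 FPKM. ANKRD35 had 0, 0 and 0.0332 FPKM in siANKRD35 libraries, against 753, 687 and 742 FPKM in their controls, and at most 0.0392 FPKM in the RBCK1 and MITD1 tables. MITD1 had 2.43, 2.66 and 3.03 FPKM in siMITD1 libraries, against 7.16, 7.42 and 7.83 FPKM in their controls. The kidney and 786-O markers PAX8, PAX2, EPAS1, VIM, KRT8, KRT18, MET and EGFR were at 1 FPKM or more in every library. Of 14 markers of other cell types, none of the 4 of endothelium reached 1 FPKM in any library (PECAM1 was not matched in the MITD1 table), while LAPTM5 of the 5 blood cell markers and LUM and COL1A1 of the 5 fibroblast markers did. The blood cell markers summed to 2.68 to 3.7 FPKM in shRBCK1 and 2.06 to 2.61 FPKM in shcontrol libraries, 0.71 to 1.26 FPKM in siANKRD35 and 0.609 to 0.797 FPKM in control libraries, and 1.15 to 1.46 FPKM in siMITD1 and 3.81 to 4.76 FPKM in control libraries. LAPTM5 made up most of these sums, was called higher after RBCK1 and lower after MITD1 knockdown, and CD3E and HBB were at 0 in all libraries. The fibroblast markers summed to 2.27 to 2.87 FPKM in shRBCK1 and 1.78 to 1.95 FPKM in shcontrol libraries, 0.287 to 0.467 FPKM in siANKRD35 and 0.73 to 0.982 FPKM in control libraries, and 3.31 to 3.63 FPKM in siMITD1 and 3.75 to 4.8 FPKM in control libraries, with DCN at 0 in the RBCK1 and MITD1 tables. The part of these genes in the members' changes was not tested. The 6 libraries of the ANKRD35 table, knockdown and control alike, stood apart from the other 12. They held CDKN2B at 2.07 to 2.46 FPKM in siANKRD35 and 6.45 to 7.1 FPKM in control libraries, where the RBCK1 and MITD1 tables listed 0, and EPCAM at 19.2 to 21.5 FPKM, where the other tables had at most 1.96 FPKM. These 2 genes were chosen after their values were seen. The 786-O line is known for a deletion of the CDKN2A and CDKN2B locus, and whether the ANKRD35 libraries come from the same cells as the others was not tested. Across 11793 genes the control means correlated with a Pearson r of 0.888 between the RBCK1 and MITD1 tables, 0.817 between RBCK1 and ANKRD35 and 0.774 between ANKRD35 and MITD1, as a description over genes that are no independent replicates.

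The largest changes in the family were among its interferon-inducible members after RBCK1 knockdown, so the promoters of 5 of them are shown first, with that of TRIM44, which holds the same motif and was not called there. The motif is GAAANNGAAA, the core of the interferon-stimulated response element, searched on both strands, so that a match on the other strand reads TTTCNNTTTC. RefSeq promoters (build GRCh38.p14, from 250 bases before to 50 after the start site) were found for 51 of the 65 members, and 9 of them (17.6%) held the motif, against 4.38% of 27305 genes. The sequences run 5′ to 3′ on the strand of the gene, and capitals mark the matches. A match describes the letters in this window and is not a measured binding site.
TRIM21, chr11:4393653-4393952, minus strand: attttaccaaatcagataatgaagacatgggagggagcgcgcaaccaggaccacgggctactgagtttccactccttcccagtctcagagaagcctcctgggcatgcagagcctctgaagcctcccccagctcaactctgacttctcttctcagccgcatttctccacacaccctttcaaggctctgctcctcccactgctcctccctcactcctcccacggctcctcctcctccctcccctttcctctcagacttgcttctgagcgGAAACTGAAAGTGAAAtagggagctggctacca
TRIM14, chr9:98119173-98119472, minus strand: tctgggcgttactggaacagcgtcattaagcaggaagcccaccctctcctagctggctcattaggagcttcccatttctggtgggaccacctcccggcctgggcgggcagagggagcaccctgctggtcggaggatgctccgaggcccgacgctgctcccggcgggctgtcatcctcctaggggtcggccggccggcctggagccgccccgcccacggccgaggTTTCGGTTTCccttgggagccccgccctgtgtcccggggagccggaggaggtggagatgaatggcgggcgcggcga
TRIM69, chr15:44736278-44736577, plus strand: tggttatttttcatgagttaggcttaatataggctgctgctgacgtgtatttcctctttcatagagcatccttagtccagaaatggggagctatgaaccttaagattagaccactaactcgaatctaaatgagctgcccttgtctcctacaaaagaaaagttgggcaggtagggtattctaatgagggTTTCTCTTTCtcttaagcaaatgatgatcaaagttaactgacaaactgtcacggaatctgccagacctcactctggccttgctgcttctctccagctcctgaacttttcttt
TRIM5, chr11:5685025-5685324, minus strand: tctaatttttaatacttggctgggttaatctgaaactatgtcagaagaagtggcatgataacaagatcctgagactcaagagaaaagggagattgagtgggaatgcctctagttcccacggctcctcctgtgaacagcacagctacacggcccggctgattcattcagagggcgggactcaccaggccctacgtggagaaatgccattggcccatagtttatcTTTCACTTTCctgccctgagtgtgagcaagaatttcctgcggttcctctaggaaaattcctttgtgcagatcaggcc
TRIM26, chr6:30213357-30213656, minus strand: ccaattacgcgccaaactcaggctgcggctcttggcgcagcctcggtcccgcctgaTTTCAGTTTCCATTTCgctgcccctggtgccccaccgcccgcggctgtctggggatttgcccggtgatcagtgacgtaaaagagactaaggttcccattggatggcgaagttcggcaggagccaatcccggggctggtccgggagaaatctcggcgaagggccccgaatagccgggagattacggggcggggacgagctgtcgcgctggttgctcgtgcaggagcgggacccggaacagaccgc
TRIM44, chr11:35662525-35662824, plus strand: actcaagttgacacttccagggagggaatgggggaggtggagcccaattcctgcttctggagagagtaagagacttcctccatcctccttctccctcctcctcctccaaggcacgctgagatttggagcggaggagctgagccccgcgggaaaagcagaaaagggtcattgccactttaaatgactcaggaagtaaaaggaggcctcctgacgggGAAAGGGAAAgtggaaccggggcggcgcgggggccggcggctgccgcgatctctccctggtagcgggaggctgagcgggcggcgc

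In these windows TRIM21 held overlapping matches that begin 17 and 23 bases after the start site. The match of TRIM14 lay 26 bases before the start site, that of TRIM5 27 bases, that of TRIM44 35 bases and that of TRIM69 62 bases before it. TRIM26 held overlapping matches farther out, 194 and 188 bases before the start site. The other 3 members with a match were TRIM2, TRIM16 and TRIM34. Of the 9 members, 8 were tested after RBCK1 knockdown: TRIM5, TRIM14, TRIM16, TRIM21, TRIM26 and TRIM69 fell, TRIM2 rose and TRIM44 was not called. Of all genes tested there, 24.1% were called higher and 24.9% lower. Apart from TRIM16, those that fell are also on the interferon-inducible list, and a link between motif and change was not tested. The motif TTCNNNGAA, the core of the gamma-activated site, which reads the same on both strands, was also found in 9 members (17.6%), against 9.38% of all promoters, and in none of the 6 printed. TRIM6, TRIM38 and TRIM56, which are interferon-inducible too, had an entry without a GAAANNGAAA match. TRIM22, the member with the largest change, had no promoter entry and was not searched.

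After RBCK1 knockdown, 8 of the 9 interferon-inducible members tested fell, and none rose. The list of interferon-inducible members is from background knowledge and was chosen with earlier results of these data known. In mean FPKM TRIM22 fell by 96.9%, TRIM21 fell by 77%, TRIM14 fell by 75.4%, TRIM69 fell by 73% and TRIM5 fell by 56.2%. Among the other 27 members tested, 10 rose and 7 fell. In all, 10 members rose and 15 fell of 36 tested (69.4%), where 49.1% of all 12227 genes tested were called (24.1% higher and 24.9% lower), and the members' median change was -0.05 beside 0.01 over all genes. Knockdown and control ranges were separate for 26 of the 36 members, beside 59% of all genes tested. TRIM22, TRIM45 and TRIM66 reached 1 FPKM in every library of 1 group and in none of the other, so the filter itself selects for a difference there.

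TRIM22, a nuclear and cytoplasmic ligase that restricts HIV transcription and influenza virus, changed most. It had 0.451, 0.432 and 0.368 FPKM in shRBCK1 libraries, against 13.6, 13 and 13.2 FPKM in shcontrol libraries. The groups lie far apart, with a log2 change of -3.33 (SE 0.0514, limma adjusted p = 7.58e-09). TRIM21 (Ro52) is the cytosolic antibody receptor that directs antibody-coated viruses to the proteasome. Its level was 10.3, 11.2 and 10.4 FPKM in shRBCK1 libraries, against 48.6, 43.7 and 45.9 FPKM in shcontrol libraries, so every knockdown library lay far below every control (log2 change -2.02, SE 0.0499, limma adjusted p = 9.82e-08). TRIM14, which lacks a RING domain and acts as a mitochondrial adaptor in RNA sensing, had 11.5, 10.6 and 11.2 FPKM in shRBCK1 libraries, against 44.1, 45.8 and 45.6 FPKM in shcontrol libraries. This is a separation of the same order as that of TRIM21 (log2 change -1.93, SE 0.0384, limma adjusted p = 2.75e-08). Exons of TRIM14 share 422 bases with NANS on the opposite strand, and the counting strand is not given in the sources used here.

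TRIM69, which restricts vesicular stomatitis virus, had 2.46, 2.43 and 2.14 FPKM in shRBCK1 libraries, against 8.92, 8.58 and 8.52 FPKM in shcontrol libraries. The groups did not overlap (log2 change -1.53, SE 0.0542, limma adjusted p = 7.84e-07). TRIM5, the capsid-binding retroviral restriction factor, had 3.73, 3.76 and 3.74 FPKM in shRBCK1 libraries, against 8.94, 8.74 and 7.94 FPKM in shcontrol libraries (log2 change -1.01, SE 0.0518, limma adjusted p = 6.42e-06). TRIM5 and TRIM22 are neighbours on chromosome 11 with TRIM6 and TRIM34, and TRIM6 lies at chr11:5596109-5612958. By its annotated bounds the TRIM5 gene (chr11:5663557-5938619, minus strand) spans TRIM22 (chr11:5689689-5737089, plus strand). From the start site of the promoter shown above (chr11:5685025-5685324) TRIM5 does not span it, as TRIM22 lies upstream of that window. The cluster did not move as one. TRIM6, which makes free ubiquitin chains that activate IKKε, had 4.8, 4.59 and 5.02 FPKM in shRBCK1 libraries, against 5.41, 4.94 and 5.44 FPKM in shcontrol libraries, and these groups overlapped (log2 change -0.11, SE 0.0538, limma adjusted p = 0.128). TRIM34 stayed at or below 0.0761 FPKM in all 18 libraries. Exons of TRIM34 share 2233 bases, and those of TRIM6 1158 bases, with the gene TRIM6-TRIM34 on the same strand. How reads in shared exons were counted is not given, so the low values of TRIM34 may not mean that it was silent.

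TRIM38, a feedback inhibitor of TLR and TNF signalling, had 5.31, 5.78 and 5.3 FPKM in shRBCK1 libraries, against 9.1, 8.98 and 8.59 FPKM in shcontrol libraries. It was lower in every knockdown library (log2 change -0.61, SE 0.0476, limma adjusted p = 5.26e-05). TRIM26, a regulator of IRF3 and MAVS signalling, had 16.7, 17.6 and 16.9 FPKM in shRBCK1 libraries, against 25, 23.8 and 24.6 FPKM in shcontrol libraries (log2 change -0.50, SE 0.036, limma adjusted p = 3.78e-05). TRIM56, which acts with STING in DNA sensing, had 9.67, 9.58 and 10.3 FPKM in shRBCK1 libraries, against 12.7, 12.8 and 13.1 FPKM in shcontrol libraries. Here too the groups were separate, though the step was small (log2 change -0.36, SE 0.0404, limma adjusted p = 0.000339). Interferon response controls fell with these members: ISG15 had 43.6, 47.4 and 45.9 FPKM in shRBCK1 libraries, against 818, 770 and 769 FPKM in shcontrol libraries. STAT2 and IRF1 fell as well, and IRF9, which reached 1 FPKM in shcontrol libraries only, was lower. For ISG15, TRIM21 and TRIM14 the shcontrol libraries were the ones apart from the rest of the series. In the 12 libraries of the other tables ISG15 lay at 51 to 93.5 FPKM, TRIM21 at 12.5 to 17.3 FPKM and TRIM14 at 5.19 to 11.4 FPKM. These values are far below shcontrol and nearer to shRBCK1. TRIM22 lay at 0.843 to 9.67 FPKM there, between shRBCK1 and shcontrol. TRIM5 was above shRBCK1 in all these libraries, at 7.31 to 9.43 FPKM in the ANKRD35 table, which overlapped shcontrol, and 4.74 to 6.35 FPKM in the MITD1 table. Each table was scaled separately, and the part of the interferon response in the members' changes was not tested. PML, a TRIM protein under another symbol that organises nuclear bodies and is interferon-inducible, had 10.9, 11.2 and 11.5 FPKM in shRBCK1 libraries, against 30.3, 30.1 and 29.6 FPKM in shcontrol libraries (log2 change -1.34, limma adjusted p = 1.24e-07).

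**Figure D1:**
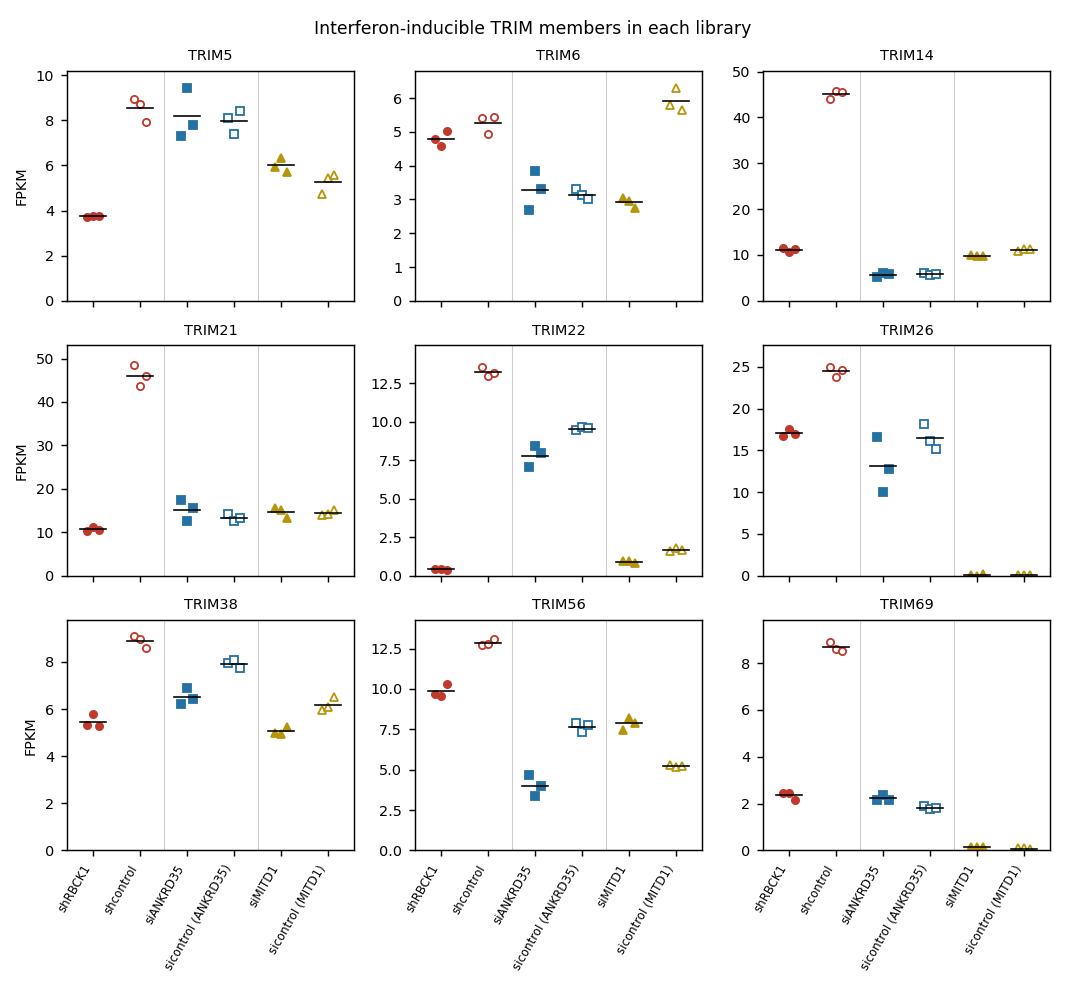
FPKM (vertical axes, linear from 0) of the 9 interferon-inducible TRIM members tested in at least 1 table, in each library (points) with the group mean (line), for each knockdown group (filled) left of its own control (open). After RBCK1 knockdown the libraries of TRIM22, TRIM21, TRIM14, TRIM69, TRIM5, TRIM38, TRIM26 and TRIM56 lay below all shcontrol libraries, while in the other tables the groups were close or overlapped for TRIM5, TRIM14 and TRIM21.

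Outside the interferon-inducible members, the lower calls after RBCK1 knockdown were TRIM8, TRIM11, TRIM16, TRIM35, TRIM47, TRIM68 and TRIM27, with changes of -0.64 to -0.19. TRIM8, a ligase of the TNF to NF-kB pathway, had 8.48, 9.14 and 9.05 FPKM in shRBCK1 libraries, against 14.2, 14.4 and 14.5 FPKM in shcontrol libraries. It was the member with the largest change of this set (log2 change -0.64, SE 0.0399, limma adjusted p = 1.80e-05). TRIM16, a RING-less member that acts in autophagy of damaged lysosomes, averaged 12.1 ± 0.241 FPKM in shRBCK1 libraries and 15.7 ± 0.672 FPKM in shcontrol libraries (SD, n = 3 each, as below; limma adjusted p = 0.000417). Its near-identical copy TRIM16L averaged 29.7 ± 1.44 FPKM in shRBCK1 libraries and 42.2 ± 1.14 FPKM in shcontrol libraries, and reads may be split between them, so the values of both are uncertain.

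The rises after RBCK1 knockdown were small. TRIM45, which carries a filamin-type domain, had 1.47, 1.49 and 1.47 FPKM in shRBCK1 libraries, against 0.886, 0.827 and 0.636 FPKM in shcontrol libraries. It was the largest of them (log2 change 0.48, SE 0.0857, limma adjusted p = 0.00302). TRIM65, the ligase of the RNA sensor MDA5, had 7.12, 6.97 and 7.87 FPKM in shRBCK1 libraries, against 5.89, 5.73 and 5.07 FPKM in shcontrol libraries (log2 change 0.34, SE 0.0658, limma adjusted p = 0.00408). MDA5 itself (IFIH1) lay at 2.64 to 3 FPKM in shRBCK1 libraries, against 36.7 to 37.7 FPKM in shcontrol libraries. TRIM9, a microtubule-associated ligase of axon guidance, averaged 5.36 ± 0.225 FPKM in shRBCK1 libraries and 4.1 ± 0.0567 FPKM in shcontrol libraries (log2 change 0.32, limma adjusted p = 0.0012). TRIM55 and TRIM59 rose as well and are described across the knockdowns below. TRIM33 (log2 change 0.15, limma adjusted p = 0.0281) and TRIM37 (log2 change 0.12, limma adjusted p = 0.0459) also rose, while both fell after MITD1 knockdown. TRIM2, a neurofilament ligase, averaged 1.59 ± 0.25 FPKM in shRBCK1 libraries and 1.09 ± 0.185 FPKM in shcontrol libraries (limma adjusted p = 0.0433). TRIM24, a PHD-bromodomain transcriptional corepressor, averaged 4.75 ± 0.0887 FPKM in shRBCK1 libraries and 4.13 ± 0.225 FPKM in shcontrol libraries (limma adjusted p = 0.0308). TRIM41, a ligase of protein kinase C, averaged 4.59 ± 0.0779 FPKM in shRBCK1 libraries and 4 ± 0.161 FPKM in shcontrol libraries (limma adjusted p = 0.0267). These last 3 calls were lost when single libraries were left out: TRIM2 lost its call without shRBCK1 replicate 1 or 3 or shcontrol replicate 1 or 2 (adjusted p 0.0967 to 0.134), TRIM24 without any 1 library except shcontrol replicate 3 (0.0532 to 0.0917), and TRIM41 without shRBCK1 replicate 2 or 3 or shcontrol replicate 2 or 3 (0.0631 to 0.082). The number of members called higher was 5 without shRBCK1 replicate 3 and 6 without shRBCK1 replicate 1 or shcontrol replicate 1 or 2. Without shRBCK1 replicate 3 those were TRIM45, TRIM55, TRIM65, TRIM9 and TRIM59, so TRIM33 and TRIM37 were not called there either.

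After ANKRD35 knockdown TRIM56, TRIM44, TRIM8, TRIM62, TRIM9, TRIM28, TRIM22 and TRIM38 fell, and TRIM55, TRIM27, TRIM59, TRIM13 and TRIM7 rose. These 13 of 37 members tested (35.1%) stand beside 36.3% of all 11890 genes tested (19.4% higher and 16.9% lower), and the members' median change was -0.12 beside 0.03 over all genes. Among the interferon-inducible members 3 of 9 fell and none rose. The groups did not overlap for 19 of the 37 members (52.2% of all genes tested).

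TRIM56 had the largest change, with 4.67, 3.39 and 3.97 FPKM in siANKRD35 libraries, against 7.91, 7.35 and 7.76 FPKM in control libraries. The groups were well apart (log2 change -0.80, SE 0.105, limma adjusted p = 0.00247). TRIM44, a RING-less member with a ubiquitin-protease-type zinc finger, had 5.75, 6.92 and 6 FPKM in siANKRD35 libraries, against 9.4, 8.88 and 8.91 FPKM in control libraries (log2 change -0.48, SE 0.0849, limma adjusted p = 0.00621). TRIM27, a ligase of the WASH complex in endosomal recycling, had 19.3, 18.5 and 19.7 FPKM in siANKRD35 libraries, against 13.4, 13.7 and 13.6 FPKM in control libraries. All knockdown libraries were higher (log2 change 0.47, SE 0.0654, limma adjusted p = 0.00292). TRIM28 (KAP1), the corepressor that KRAB zinc finger proteins recruit to DNA, had 91.9, 79.5 and 88.8 FPKM in siANKRD35 libraries, against 109, 109 and 105 FPKM in control libraries (log2 change -0.31, SE 0.0768, limma adjusted p = 0.0192). TRIM8 had 16, 12.4 and 16.6 FPKM in siANKRD35 libraries, against 20.7, 20 and 20.4 FPKM in control libraries, with knockdown replicate 2 below the other libraries (log2 change -0.43, SE 0.113, limma adjusted p = 0.025). TRIM13, an ER-anchored ligase of protein degradation there, had 2.39, 3.08 and 2.44 FPKM in siANKRD35 libraries, against 1.77, 2.05 and 1.66 FPKM in control libraries (log2 change 0.36, SE 0.106, limma adjusted p = 0.0356). It shares 346 exon bases with the antisense gene DLEU2. TRIM62, which acts in innate immune signalling through CARD9, averaged 1.39 ± 0.147 FPKM in siANKRD35 libraries and 2.02 ± 0.152 FPKM in control libraries (limma adjusted p = 0.0259). TRIM9 averaged 1.01 ± 0.158 FPKM in siANKRD35 libraries and 1.5 ± 0.0367 FPKM in control libraries (limma adjusted p = 0.034). TRIM7, which binds glycogenin, averaged 1.44 ± 0.135 FPKM in siANKRD35 libraries and 0.974 ± 0.0646 FPKM in control libraries (limma adjusted p = 0.0336).

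Calls in this comparison depended on single libraries. TRIM56, TRIM44, TRIM27 and TRIM55 kept theirs whichever 1 of the 6 libraries was left out, with adjusted p-values up to 0.0377. The number of members called was 7 higher and 13 lower without siANKRD35 replicate 2, and 3 higher and 4 lower without siANKRD35 replicate 3. It was 2 higher and 2 lower without control replicate 1, and 3 higher and 2 lower without control replicate 2 or without control replicate 3. All 13 members called as measured were among the 20 called without siANKRD35 replicate 2. TRIM21 was called higher without that library (log2 change 0.28, adjusted p = 0.0173) and TRIM26 lower without siANKRD35 replicate 1 (log2 change -0.50, adjusted p = 0.0269), while over all alternatives that leave out 1 library their adjusted p-values ran from 0.0173 to 0.643 for TRIM21 and from 0.0269 to 0.371 for TRIM26.

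Changes after ANKRD35 knockdown ran against gene length: rank correlation between length and log2 change over all genes tested (Spearman's rho) was -0.413, beside 0.0272 after RBCK1 knockdown and 0.0889 after MITD1 knockdown. The family's median length was 5640 bases in this comparison, against 4567 bases over all genes tested. With length and GC content taken out, 11 of the 13 members remained called. TRIM38 (log2 change -0.11, adjusted p = 0.168) and TRIM9 (log2 change -0.11, adjusted p = 0.388) did not, and TRIM35, TRIM39, TRIM47 and TRIM69 were called in addition. TRIM56 then changed by -0.51, TRIM44 by -0.23, TRIM8 by -0.16 and TRIM55 by 0.29, smaller than as measured by over 1.5 times, and TRIM7 by 0.46, larger by over 1.5 times. With length alone taken out TRIM8 was not called (log2 change -0.24, adjusted p = 0.213), nor were TRIM22 (-0.22, adjusted p = 0.0616), TRIM38 (-0.07, adjusted p = 0.429) and TRIM9 (-0.15, adjusted p = 0.201).

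**Figure D2:**
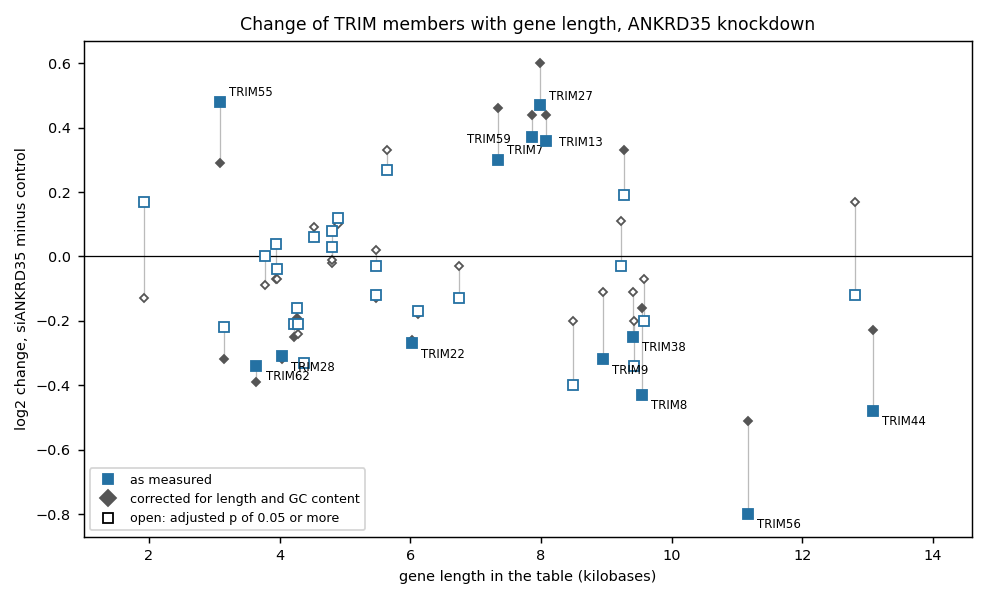
Log2 change of the 37 TRIM members tested after ANKRD35 knockdown (vertical axis, siANKRD35 minus control) against gene length in kilobases (horizontal axis), as measured (squares) and after correction for length and GC content (diamonds), filled where the adjusted p was under 0.05. The longest members called, TRIM44, TRIM56 and TRIM8, moved towards 0 with the correction, while TRIM27, TRIM59, TRIM13 and TRIM7 moved away from it.

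After MITD1 knockdown, 13 members fell and 8 rose of 30 tested (70%), beside 65.6% of all 10415 genes tested (30% higher and 35.6% lower), with a median change of -0.13 for the members and -0.03 over all genes. On the log2(FPKM + 1) scale TRIM62 and TRIM6 showed the largest decreases and TRIM56 the largest rise, while in the ratio of mean FPKM TRIM59 rose more (by 60.1%) than TRIM56 (by 50.4%). Of the 7 interferon-inducible members tested, TRIM6, TRIM22, TRIM38 and TRIM14 fell and TRIM56 rose. For 23 of the 30 members the groups did not overlap, beside 70.4% of all genes tested. TRIM22 reached 1 FPKM in every control library and in no siMITD1 library, so the filter itself selects for a difference there.

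TRIM62 had 2.48, 2.23 and 2.37 FPKM in siMITD1 libraries, against 7.62, 7.24 and 7.06 FPKM in control libraries. It was lower in every knockdown library (log2 change -1.31, SE 0.0545, limma adjusted p = 3.13e-07). TRIM6 had 3.05, 2.95 and 2.76 FPKM in siMITD1 libraries, against 5.79, 6.31 and 5.65 FPKM in control libraries (log2 change -0.82, SE 0.0586, limma adjusted p = 5.37e-06). TRIM22 had 0.935, 0.918 and 0.843 FPKM in siMITD1 libraries, against 1.59, 1.81 and 1.66 FPKM in control libraries. For both genes, which lie in the chromosome 11 cluster, every knockdown library was thus below every control (TRIM22: log2 change -0.50, SE 0.0693, limma adjusted p = 0.000257). TRIM5, next to them, had 5.94, 6.35 and 5.7 FPKM in siMITD1 libraries, against 4.74, 5.46 and 5.59 FPKM in control libraries. Its groups were separate too, with the knockdown libraries higher, but the change missed the threshold (log2 change 0.16, limma adjusted p = 0.0595). TRIM47 had 3.09, 3.71 and 3.04 FPKM in siMITD1 libraries, against 5.34, 6.16 and 5.11 FPKM in control libraries (log2 change -0.61, SE 0.0823, limma adjusted p = 0.000219).

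The PHD-bromodomain members, which act on chromatin, split after MITD1 knockdown. TRIM28 had 88.1, 88 and 87.5 FPKM in siMITD1 libraries, against 124, 128 and 127 FPKM in control libraries, a wide gap beside the small spread within each group (log2 change -0.52, SE 0.0233, limma adjusted p = 4.59e-07). TRIM33, a ligase of SMAD4 in TGF-beta signalling, had 3.87, 4.52 and 4.15 FPKM in siMITD1 libraries, against 6.48, 6.52 and 6.29 FPKM in control libraries (log2 change -0.52, SE 0.0574, limma adjusted p = 6.53e-05). TRIM24 had 8.92, 7.53 and 7.83 FPKM in siMITD1 libraries, against 7.08, 6.57 and 6.9 FPKM in control libraries. Its rise (log2 change 0.21, SE 0.063, limma adjusted p = 0.0171) lost its call without control replicate 2 (log2 change 0.18, adjusted p = 0.0553). TRIM37, a histone H2A ligase that also limits centrosome assembly, had 10.7, 10.8 and 10.4 FPKM in siMITD1 libraries, against 14.2, 14.7 and 14.9 FPKM in control libraries (log2 change -0.42, SE 0.0376, limma adjusted p = 1.84e-05).

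TRIM56 had 7.47, 8.23 and 7.92 FPKM in siMITD1 libraries, against 5.26, 5.19 and 5.25 FPKM in control libraries, so here the knockdown libraries were the higher ones (log2 change 0.51, SE 0.0478, limma adjusted p = 2.59e-05). TRIM44 had 11.2, 11.9 and 11 FPKM in siMITD1 libraries, against 9.11, 8.64 and 8.68 FPKM in control libraries (log2 change 0.33, SE 0.0451, limma adjusted p = 0.000224). Both genes had fallen after ANKRD35 knockdown. TRIM9 averaged 5.04 ± 0.0947 FPKM in siMITD1 libraries and 3.54 ± 0.407 FPKM in control libraries (log2 change 0.41, limma adjusted p = 0.000812). TRIM52, which has an enlarged RING domain, averaged 1.33 ± 0.0896 FPKM in siMITD1 libraries and 0.91 ± 0.115 FPKM in control libraries (log2 change 0.29, limma adjusted p = 0.0104). It reached 1 FPKM in 3 siMITD1 libraries and 1 control library, so this rise is partly selected by the filter. TRIM16 averaged 20 ± 1.53 FPKM in siMITD1 libraries and 16.8 ± 0.337 FPKM in control libraries (log2 change 0.24, limma adjusted p = 0.00382), while TRIM16L, with which it may share reads, was not called there. The interferon response controls IRF1 and ISG15 fell in this comparison and STAT2 was not called. The remaining lower calls, TRIM41, TRIM3, TRIM38, TRIM11, TRIM65 and TRIM14, had changes of -0.31 to -0.17.

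**Figure D3:**
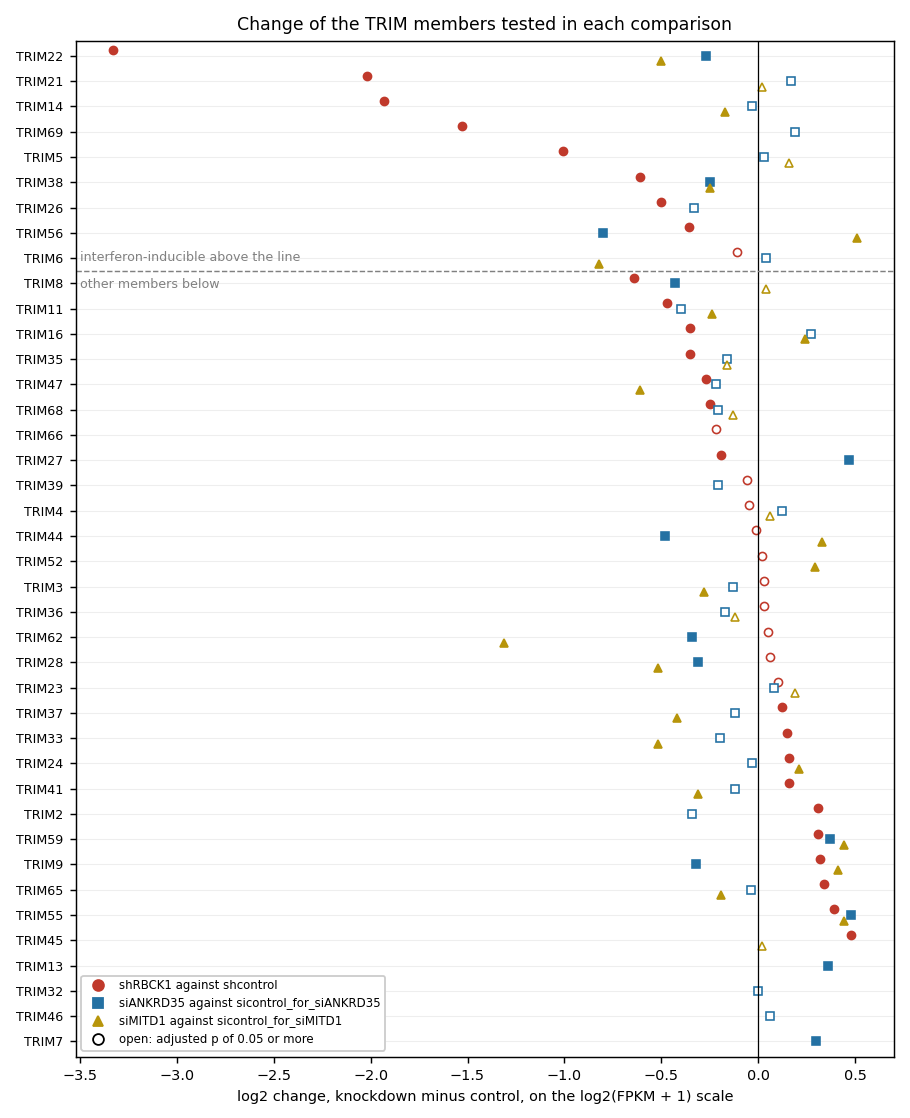
Log2 change (horizontal axis, log2(FPKM + 1) scale, knockdown minus control) of the 40 TRIM members tested in at least 1 comparison (rows), with filled symbols where the limma adjusted p was under 0.05. TRIM22, TRIM21, TRIM14, TRIM69 and TRIM5 lie at -1.01 or below after RBCK1 knockdown, and TRIM62 at -1.31 after MITD1 knockdown, while the other changes lie between -0.82 and 0.51.

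Across the 3 comparisons, which share no libraries, 33 of the 40 members tested (82.5%) were called in at least 1, beside 81.2% of 11823 genes tested in at least 1, and 9 members (22.5%) were called in both directions, beside 25.4% of those genes. Of the 28 members tested in all 3, TRIM55 and TRIM59 were called higher in all (7.14%, beside 1.71% of 9257 genes) and TRIM22 and TRIM38 lower in all (7.14%, beside 2.2%). After RBCK1 and MITD1 knockdown TRIM22 passed the filter through its control libraries alone, so those lower calls are partly selected by the filter. TRIM4, TRIM23, TRIM32, TRIM36, TRIM39, TRIM46 and TRIM66 were tested and not called. TRIM55 (MURF2), a sarcomere-associated ligase of striated muscle, had 8.97, 7.56 and 7.69 FPKM in shRBCK1 libraries, against 5.63, 6.31 and 5.81 FPKM in shcontrol libraries (log2 change 0.39, SE 0.0701, limma adjusted p = 0.00308). It had 96.3, 104 and 97.7 FPKM in siANKRD35 libraries, against 69.7, 70.4 and 72.5 FPKM in their controls (log2 change 0.48, SE 0.0664, limma adjusted p = 0.00282), a level of another order than in the other tables. With quantile normalization that change was 0.23 (adjusted p = 0.089), and with the other alternatives its adjusted p was 0.0239 or less. In siMITD1 libraries TRIM55 had 4.43, 4.56 and 4.32 FPKM, against 3.53, 2.98 and 2.56 FPKM in their controls (log2 change 0.44, SE 0.0852, limma adjusted p = 0.00177).

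TRIM59, an ER membrane ligase, averaged 2.17 ± 0.0694 FPKM in shRBCK1 and 1.56 ± 0.154 FPKM in shcontrol libraries (log2 change 0.31, limma adjusted p = 0.00906). It averaged 4.68 ± 0.108 FPKM in siANKRD35 and 3.39 ± 0.263 FPKM in control libraries (log2 change 0.37, limma adjusted p = 0.0113), a call lost without control replicate 1 (log2 change 0.32, adjusted p = 0.0586, beside 0.00557 without siANKRD35 replicate 2). In siMITD1 libraries it averaged 2.29 ± 0.0544 FPKM, against 1.43 ± 0.0351 FPKM in control libraries (log2 change 0.44, limma adjusted p = 0.000231). No library of a knockdown group overlapped its control. TRIM59 shares 1561 exon bases with SMC4 on the opposite strand, and SMC4, chosen after its values were seen, averaged 44.4 ± 1.86 FPKM in shRBCK1 and 36.2 ± 1.48 FPKM in shcontrol libraries. SMC4 was lower after the other knockdowns, with 9.13 ± 1.49 FPKM in siANKRD35 against 12.9 ± 0.264 FPKM in control libraries and 27.2 ± 0.644 FPKM in siMITD1 against 31.2 ± 1.01 FPKM in control libraries.

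The lower calls of TRIM22 and TRIM38 in all 3 comparisons differed in weight. After ANKRD35 knockdown TRIM22 had 7.05, 8.41 and 7.95 FPKM, against 9.46, 9.67 and 9.57 FPKM in control libraries (log2 change -0.27, SE 0.0812, limma adjusted p = 0.0404). TRIM38 had 6.2, 6.9 and 6.41 FPKM in siANKRD35 libraries, against 7.96, 8.08 and 7.76 FPKM in control libraries (log2 change -0.25, SE 0.0719, limma adjusted p = 0.0325). For both genes the groups were separate, but the call remained only without siANKRD35 replicate 2 and was lost without any other 1 library (adjusted p up to 0.136 for TRIM22 and 0.129 for TRIM38). After MITD1 knockdown TRIM38 averaged 5.06 ± 0.159 FPKM in siMITD1 libraries and 6.19 ± 0.271 FPKM in control libraries (log2 change -0.25, limma adjusted p = 0.00237).

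Levels also differed between the tables, each of which was scaled separately. TRIM28 ranked first in all 3 control groups, with 104 ± 2.68 FPKM in shcontrol, 108 ± 2.24 FPKM in sicontrol_for_siANKRD35 and 126 ± 1.69 FPKM in sicontrol_for_siMITD1 libraries. Behind it came TRIM21 and TRIM14 in shcontrol, TRIM55 in sicontrol_for_siANKRD35 and TRIM8 in sicontrol_for_siMITD1. The FPKM summed over the 65 members was 305 ± 6.34 in shRBCK1 and 415 ± 5.93 in shcontrol libraries. It was 411 ± 10.6 in siANKRD35 and 420 ± 2.65 in control libraries, which overlapped, and 283 ± 6.21 in siMITD1 and 329 ± 3.16 in control libraries. TRIM28 alone made up 25% of the sum in shcontrol, 25.7% in sicontrol_for_siANKRD35 and 38.4% in sicontrol_for_siMITD1 libraries. In the MITD1 table TRIM26, TRIM27 and TRIM39 added next to nothing to it. TRIM32, a ligase mutated in a limb-girdle muscular dystrophy, had 9.92, 9.34 and 9.62 FPKM in siANKRD35 libraries, against 8.96, 10.3 and 9.67 FPKM in control libraries. It was at 0 in every library of the MITD1 table and in 5 of the 6 of the RBCK1 table, where shcontrol replicate 3 had 0.0625 FPKM.

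In the MITD1 table TRIM26, TRIM27 and TRIM39, which lie in or near the major histocompatibility complex on chromosome 6, were at or near 0 and were not tested. TRIM26 had 0.0148, 0 and 0.136 FPKM in siMITD1 libraries, against 0.0483, 0.0295 and 0.0161 FPKM in control libraries, where the 12 libraries of the other tables held 10 to 25 FPKM. TRIM27 was at most 0.308 FPKM, and TRIM39 was at 0 throughout. They shared this with their neighbours: of the 62 genes that start between 28 and 34 Mb on chromosome 6 and had at least 5 FPKM in both other control groups, 42 (67.7%) were under 0.5 FPKM in the controls of the MITD1 table, against 81 of 5581 other genes (1.45%). These bounds were chosen after the values were seen. TRIM69 was also low there, at 0.126, 0.126 and 0.142 FPKM in siMITD1 libraries, against 0.0837, 0.0836 and 0.0607 FPKM in control libraries.

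**Figure D4:**
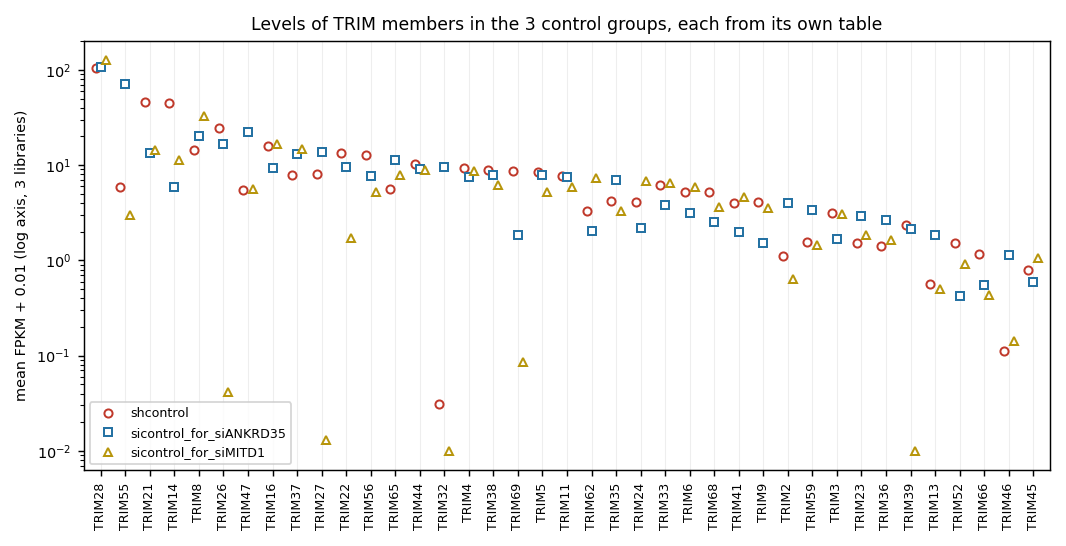
Mean FPKM plus 0.01 (vertical log axis, 3 libraries each) of TRIM members with at least 1 FPKM in a control group, in the 3 control groups, each from its own separately scaled table. TRIM28 is highest in each, TRIM55 and TRIM32 stand out in the ANKRD35 table, and TRIM26, TRIM27 and TRIM39 drop to the floor in the MITD1 table.

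Genes that work with the family were counted by list. Of 13 ubiquitin-conjugating enzymes, 12 were tested in each comparison: 5 rose and 3 fell after RBCK1 knockdown, 5 rose and none fell after ANKRD35 knockdown, and 2 rose and 6 fell after MITD1 knockdown. UBE2N, which makes lysine-63 chains, had 37.7, 47.2 and 36.3 FPKM in siANKRD35 libraries, against 22.3, 25.3 and 24.6 FPKM in control libraries (log2 change 0.72, limma adjusted p = 0.00436). After MITD1 knockdown UBE2N had 19.9, 19.2 and 20.9 FPKM, against 27, 24.6 and 26.3 FPKM in control libraries (log2 change -0.36, limma adjusted p = 0.000145). The list of the TRIM28 corepressor complex, with HP1 proteins, SETDB1, histone deacetylases and SUMO, had 7 genes higher and none lower of 12 after RBCK1 knockdown. It had 7 higher and 2 lower (SETDB1 and ATF7IP) after ANKRD35 knockdown, and 4 higher and 5 lower after MITD1 knockdown.

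Of 14 genes of nucleic acid sensing and NF-kB signalling on which TRIM ligases act, 8 fell and 1 (MAVS) rose of 14 tested after RBCK1 knockdown, 6 fell and none rose of 12 after ANKRD35 knockdown, and 5 fell and 3 rose of 10 after MITD1 knockdown. DDX58 (RIG-I), an RNA sensor, had 7.25, 7.09 and 7.34 FPKM in shRBCK1 libraries, against 76.3, 76.3 and 77 FPKM in shcontrol libraries (log2 change -3.24, limma adjusted p = 1.08e-09). TMEM173 (STING), the DNA sensing adaptor, had 8.81, 8.56 and 8.35 FPKM in shRBCK1 libraries, against 19, 18.6 and 19 FPKM in shcontrol libraries (log2 change -1.05, limma adjusted p = 6.10e-07). It reached at most 0.174 FPKM in the ANKRD35 table. Of 7 nuclear partners reported here, 1 rose and 1 fell after RBCK1 knockdown (28.6%), 2 fell after ANKRD35 knockdown (28.6%) and 1 fell after MITD1 knockdown (14.3%). The counts in these lists stand beside 49.1%, 36.3% and 65.6% of all genes called after RBCK1, ANKRD35 and MITD1 knockdown.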

How the data were processed

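The values are FPKM, used as the authors deposited them, 1 table for each knockdown with its control. Per the labels' protocols the libraries were made from total RNA with a directional kit. The aligner, the counting tool and the counting strand are not given in the sources used here. Per the submitters' processing notes the build was mm10, a mouse build, while the RBCK1 and ANKRD35 tables list human Ensembl identifiers. The MITD1 table lists symbols only, and 6 value columns of the ANKRD35 table that name no sample were not used.

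Reads were recovered as whole multiples of a step in FPKM times gene length: within 0.01 of a read, whole numbers resulted for 100% of the values of each library in the RBCK1 and ANKRD35 tables and for 93.22% or more in the MITD1 table, where 61 of the 65 members had them. Fits used limma 3.58.1 (R 4.3.3) on log2(FPKM + 1), per table, without a replicate block, and were tested on simulated data. Members and gene lists were chosen with earlier results of these data known. Named members were, per comparison, the 8 called members with the largest rise, the 8 with the largest decrease and the interferon-inducible members; others were named after their values were seen. Exon overlaps and GC content came from GENCODE 29. Alternatives were another pseudocount (0.1), no filter, a filter on the mean, quantile normalization, median ratio scaling, a length correction with and without GC content, voom on recovered reads, a replicate block, an adjusted p under 0.01 and leaving out each library. 1 further gene of the family is not reported here.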

Additional observations from a re-analysis of the deposited data

How the results depend on the processing

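Of the alternatives for the named members, the interferon-inducible members called lower after RBCK1 knockdown kept direction and call under all of them, scalings included, and these shifted the median of all genes by at most 0.04 on the log2 scale. Members called higher after RBCK1 knockdown numbered 10 as reported, 5 without a filter (36.0% of members called), 5 at an adjusted p under 0.01 (3967 genes, 1823 higher) and 5 to 8 when 1 library was left out. Without a filter, here and after ANKRD35 knockdown, the share is over all members with a nonzero value in any library. That set is larger than the members tested, so these shares are not comparable with those reported. The matching share of all genes is not given here. After ANKRD35 knockdown, no filter left 3 higher and 3 lower members (12.0%; 1530 genes higher), and an adjusted p under 0.01 left 2 and 2 (10.8%; 1932 genes, 968 higher and 964 lower). Leaving out 1 library there gave 2267 to 6536 genes (1167 to 3516 higher, 1100 to 3020 lower), with 2 to 7 members higher and 2 to 13 lower (10.8% to 54.1%), the most without siANKRD35 replicate 2. The changes that reversed were uncalled. They were TRIM5 after ANKRD35 knockdown (-0.02 with length and GC correction, -0.01 with median ratio scaling, -0.07 to 0.10 when 1 library was left out), TRIM6 (-0.07 with length and GC correction, -0.05 with length correction, -0.05 to 0.14), TRIM14 (0.02 with length and GC correction, -0.07 to 0.02) and TRIM21 (-0.13 with length and GC correction, -0.12 with length correction), and TRIM21 after MITD1 knockdown (-0.03 to 0.08). The cause was not tested. TRIM5 after MITD1 knockdown was called under 5 alternatives (adjusted p 0.0239 to 0.0457), and TRIM69 after ANKRD35 knockdown was called higher under 3 (0.0133 to 0.0412). Replicate numbers did not pair the libraries: deviations of same-numbered libraries correlated at -0.00681, 0.00759 and 0.0284 for RBCK1, 0.179, 0.114 and -0.0874 for ANKRD35 and 0.105, 0.0323 and -0.000858 for MITD1. With a replicate block 6 members were called higher and 15 lower after RBCK1 knockdown, 4 and 6 after ANKRD35 knockdown, and 8 and 13 after MITD1 knockdown. The 25 members under the filter in every table were not tested, and no change is reported for them. Quantile normalization moved the higher share of calls to 56.9%, against 49.2% as reported, after RBCK1 knockdown and to 45.1%, against 53.5%, after ANKRD35 knockdown.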
